A study of Mus musculus with 4 samples.

Results

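Chromatin immunoprecipitation sequencing (ChIP-seq) of SHP was examined at 10 genes that mark crypt stem cells or carry Notch signalling in the mouse intestine, out of 21887 protein-coding genes of the annotation. The genes were chosen by name, with earlier results of these data known. They were Lgr5, Ascl2, Olfm4 and Prom1 as stem cell markers, and Notch1, Rbpj, Hes1, Atoh1, Dll1 and Dll4 of the Notch pathway. All peaks of the wild-type list within 50 kb of either end of each gene were taken, and a gene was counted as occupied where a peak summit lay within 5 kb of an end. The series holds 4 samples, an SHP immunoprecipitation and an input for each of 2 genotypes, wild-type C57BL/6 mice and SHP-knockout mice on a C57BL/6 background. All mice were 8 to 12 weeks old, had been fasted for 12 h and were then given chow again for 4 h, so no fasted group was compared. Jejunum and ileum were used together, and each of 3 sets of DNA was pooled from 3 mice. A single peak list for each genotype was used, without lists for the sets, so no spread between replicates could be measured and no difference was tested.

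Stem cells at the base of the intestinal crypt divide under Wnt signals and give rise to absorptive and secretory cells. Notch signalling sets the balance between these fates: the ligands Dll1 and Dll4 on one cell bind Notch receptors on its neighbour, the receptor is cut, and its inner part enters the nucleus and joins the DNA-binding protein RBPJ. This complex turns on Hes1, a repressor of Atoh1, and Atoh1 is the factor that commits cells to the secretory fate. SHP (small heterodimer partner, gene Nr0b2) is a nuclear receptor without a DNA-binding domain, which is brought to chromatin by other transcription factors. A peak list from whole intestine does not show which cells carried the bound chromatin, and binding in few cells cannot be told apart from weak binding in many.

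Of the 10 genes, 5 were occupied: Ascl2, Prom1, Hes1, Dll1 and Dll4. This was 50%, against 26.4% of all protein-coding genes (5778 of 21887). Occupied were 2 of 4 stem cell markers and 3 of 6 Notch genes. The strongest peak among the members was not at an occupied gene: it lay inside Rbpj, at the start sites that the promoter table lists 34567 and 34707 bp from the lower-coordinate end of the gene. No summit lay within 50 kb of Lgr5, Olfm4 or Atoh1, and the nearest summit to Notch1 was at another gene. The count was 4 within 1 kb (20.7% of all protein-coding genes), 5 within 10 kb (30.5%), 5 with each summit given only to the nearest gene (21.0%) and 4 with the upper quartile of enrichment values (6.89%). In all, 13 peaks lay within 50 kb of a member, and 9 of them were nearer to that member than to any other protein-coding gene. The same share was not computed for windows around other genes.

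**Figure D1:**
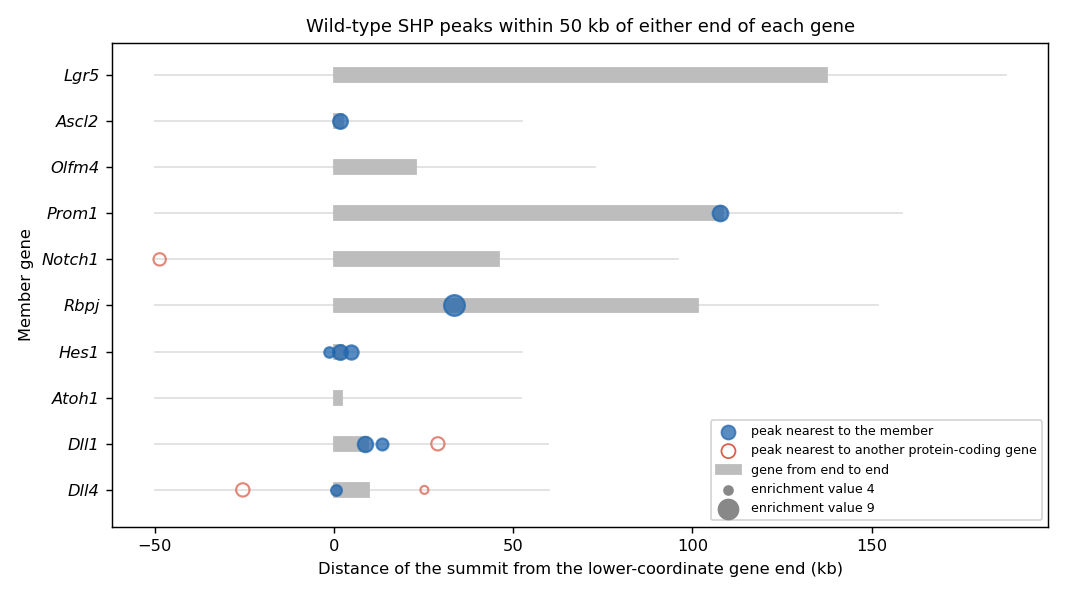
Each row is a member gene drawn to scale as a grey bar from its lower-coordinate end, with the window of 50 kb on either side as a thin line. Circles are wild-type summits, sized by enrichment value. Filled circles are nearest to the member and open circles to another protein-coding gene. The Rbpj circle, with a value of 9.40, is the largest, and the rows of Lgr5, Olfm4 and Atoh1 are empty.

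The bases before the start sites are printed for the 5 members whose listed start site lay inside a peak, and for Notch1, whose start site did not. RefSeq promoter entries of the assembly GRCm38.p6 matched 8 of the 10 members with 11 start sites, and Lgr5 and Hes1 had no entry. Each line gives the 250 bases before a start site, 5′ to 3′ in the direction of transcription, for the first start site of Rbpj, the inner one of Dll1 and the outer one of Prom1. Capitals mark the motifs searched that fell in these bases, which are described further on.
Rbpj (chr5:53590096-53590345, plus strand): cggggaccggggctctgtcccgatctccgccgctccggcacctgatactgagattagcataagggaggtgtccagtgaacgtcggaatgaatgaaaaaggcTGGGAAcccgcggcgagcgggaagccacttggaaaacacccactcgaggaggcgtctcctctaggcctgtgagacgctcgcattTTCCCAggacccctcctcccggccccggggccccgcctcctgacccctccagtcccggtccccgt
Dll1 (chr17:15375824-15376073, minus strand): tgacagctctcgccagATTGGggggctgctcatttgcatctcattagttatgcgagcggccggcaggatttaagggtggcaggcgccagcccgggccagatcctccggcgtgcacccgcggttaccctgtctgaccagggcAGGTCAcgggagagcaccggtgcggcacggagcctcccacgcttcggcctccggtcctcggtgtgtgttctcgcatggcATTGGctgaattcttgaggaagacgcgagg
Dll4 (chr2:119325534-119325783, plus strand): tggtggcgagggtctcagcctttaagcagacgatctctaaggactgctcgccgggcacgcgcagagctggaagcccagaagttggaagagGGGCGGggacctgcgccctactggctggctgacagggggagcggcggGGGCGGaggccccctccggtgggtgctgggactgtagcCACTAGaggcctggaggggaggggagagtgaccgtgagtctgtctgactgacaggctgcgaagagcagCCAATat
Prom1 (chr5:44101737-44101986, minus strand): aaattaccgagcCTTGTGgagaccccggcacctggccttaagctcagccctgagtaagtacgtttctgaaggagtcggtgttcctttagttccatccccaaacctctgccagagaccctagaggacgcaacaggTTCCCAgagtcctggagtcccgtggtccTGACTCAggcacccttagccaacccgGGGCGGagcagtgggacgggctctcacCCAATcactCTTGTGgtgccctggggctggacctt
Ascl2 (chr7:142969265-142969514, minus strand): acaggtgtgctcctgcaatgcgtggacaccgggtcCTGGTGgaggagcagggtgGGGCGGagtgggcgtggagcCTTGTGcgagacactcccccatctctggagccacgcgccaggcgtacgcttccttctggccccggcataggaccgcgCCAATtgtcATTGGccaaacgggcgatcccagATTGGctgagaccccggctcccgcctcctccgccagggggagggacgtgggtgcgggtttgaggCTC
Notch1 (chr2:26503823-26504072, minus strand): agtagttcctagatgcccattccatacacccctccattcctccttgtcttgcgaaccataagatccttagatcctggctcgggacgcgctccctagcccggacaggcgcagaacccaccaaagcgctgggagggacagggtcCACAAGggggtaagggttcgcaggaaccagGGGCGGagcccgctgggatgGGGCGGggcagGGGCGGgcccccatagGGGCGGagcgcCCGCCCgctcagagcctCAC

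Rbpj encodes the DNA-binding protein of the Notch complex. Its peak spanned chr5:53588954-53591280, a width of 2327 bp, with the summit at 53589209. The deposited enrichment value, the authors' own measure for each peak with no stated scale, was 9.40. It ranked 29 among 5775 wild-type peaks, whose median was 5.65. The −log10 p of 28.8 ranked 83, and the list's median was 14.8. Thus the Rbpj peak stood near the top of the list on both measures.

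The peak covered both listed start sites of Rbpj, at 53590346 and 53590486. Its summit lay 1137 bp before the first and 1277 bp before the second, and the peak reached from 1392 bp before to 934 bp after the first start site. The gene model of the annotation runs from 53555779 to 53657445, so the summit was 33430 bp from the nearer end, and the rule by gene ends did not count it. When start sites were used in place of ends, the occupied members were Ascl2, Prom1, Rbpj, Dll1 and Dll4, 5 of the 8 with an entry (62.5%), against 4255 of 17492 protein-coding genes with an entry (24.3%). A summit within 5 kb of a start site with none within 5 kb of a gene end was found at 170 of those 17492 genes (0.972%). Inside or within 5 kb of 38 of 21887 protein-coding genes (0.174%) lay a peak with at least the enrichment value of Rbpj.

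Both Notch ligand genes among the members were occupied. Dll1, whose product is one of the ligands presented by secretory precursors, had the widest member peak, at chr17:15374328-15377206. Its width of 2879 bp ranked 50 among 5775 peaks, and the median width was 978 bp. The enrichment value was 6.95 (rank 760) and the −log10 p was 17.3. This peak covered both listed start sites of Dll1, and its summit at 15375892 lay 69 bp before the inner start site (15375823) and 1040 bp after the outer one (15376932). A further peak at chr17:15380395-15381286 had its summit 3887 bp before the outer start site, with an enrichment value of 5.41 (rank 3410). The 2 summits were 4927 bp apart. Within 5 kb of an end, 2 or more summits were found at 667 of 21887 protein-coding genes (3.05%).

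Dll4, the other ligand of the crypt, had a weaker peak at chr2:119325168-119326631. The enrichment value was 4.89 (rank 4367) and the −log10 p was 11.2, both below the medians of the list. Its summit lay 551 bp after the start site, inside the gene and 138 bp from an end of the long noncoding RNA gene Gm14207. When the peaks under the list's median −log10 p were left out, Dll4 was no longer occupied.

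Hes1, the main target gene of Notch in the crypt and a repressor of Atoh1, had 3 peaks within 5 kb of its ends. The gene spans chr16:30065357-30067796. One summit lay 1338 bp outside the lower-coordinate end (peak chr16:30063089-30064574, enrichment value 4.76, rank 4601). The next lay inside the gene, 790 bp from the upper-coordinate end (chr16:30066784-30067411, 6.73, rank 1026). The last lay 2398 bp outside the upper-coordinate end (chr16:30069757-30071229, 6.45, rank 1449), inside the long noncoding RNA gene Gm32998 and 244 bp from an end of it. The middle peak was narrow, at 628 bp, but had the highest −log10 p of the 3, at 19.1. The values of the other 2 were 12.2 and 17.5.

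The 3 Hes1 summits were spread over 6175 bp, with gaps of 2987 and 3188 bp. Across the list, 41 runs of 3 neighbouring summits were at least that close. At least 3 summits within 5 kb of an end were found at 66 of 21887 protein-coding genes (0.302%), which include Hes1 and, in the Notch pathway, the receptor gene Notch4. Since the strand of Hes1 is not in the tables used here, the summits are placed by gene ends and not by the start site.

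Notch1, the receptor, was not occupied. The nearest summit was 48664 bp from an end, at chr2:26408501-26409398, with an enrichment value of 5.58. It lay 6 bp from an end of Inpp5e, which encodes an inositol phosphatase of the cilium. Atoh1, at the opposite pole of the pathway from Hes1, had its nearest summit 311418 bp away, where Smarcad1, a chromatin remodeller, was the nearest protein-coding gene. Read depth was unknown, so a gene without a peak in the list cannot be called free of SHP.

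The stem cell markers were divided. Prom1, which encodes a pentaspan membrane glycoprotein of cell protrusions, had a peak at chr5:44100385-44101873 with an enrichment value of 7.06 (rank 676), a −log10 p of 16.1 and a width of 1489 bp. Its summit lay 370 bp after the outer listed start site (44101736). The inner start site, at 44094768, was not inside a peak, and the summit was 6598 bp from it. Ascl2, the transcription factor that maintains the stem cell programme downstream of Wnt, had a peak at chr7:142967367-142969673. That peak was 2307 bp wide and reached from 409 bp before to 1897 bp after the start site of the gene, which is 2443 bp long. The enrichment value was 6.70 (rank 1071), the −log10 p was 16.3 and the summit lay 902 bp after the start site.

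Lgr5, the R-spondin receptor that is the standard marker of these cells, was 65253 bp from the nearest summit, which belonged to a peak of 5.10 with Zfc3h1 as the nearest protein-coding gene. Olfm4, which encodes a secreted glycoprotein of crypt base cells, was 519057 bp from the nearest summit, for which Wbp4 was the nearest protein-coding gene. Within 50 kb of an end, 7 of 10 members had a summit, against 48.2% of protein-coding genes.

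The position of the summit relative to the start site was compared with that at other genes. Over the 4255 protein-coding genes with a summit within 5 kb of a start site, the summit lay at a median of 60 bp after the nearest start site. The interquartile range ran from 84 bp before to 172 bp after it, and the range from the 5th to the 95th percentile from 901 bp before to 905 bp after. The summit of Dll1 fell inside the interquartile range. Those of Prom1 (370 bp after), Dll4 (551 bp after) and Ascl2 (902 bp after) lay after it, and that of Rbpj (1137 bp before) lay beyond the 5th percentile.

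**Figure D2:**
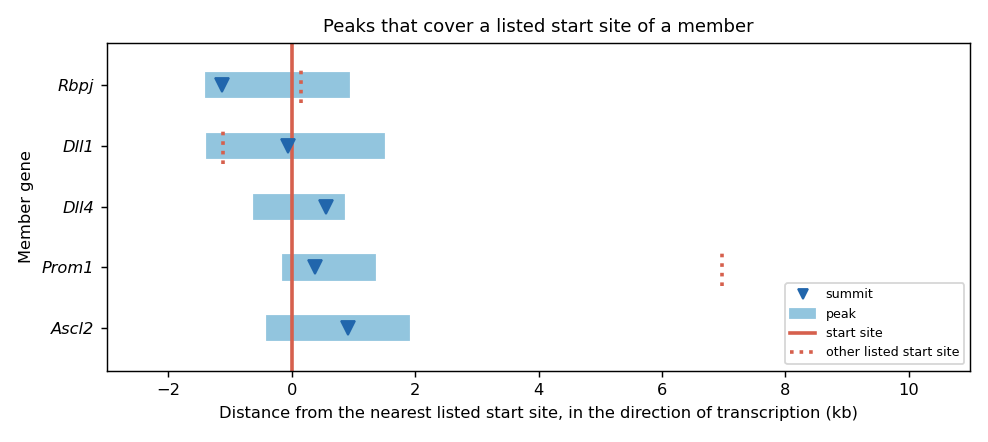
Light bars are the wild-type peaks that cover a listed start site of a member, placed along the direction of transcription in kb from the nearest listed start site (solid line at 0). Triangles are summits and dotted lines are other listed start sites. The summit of Rbpj lies 1137 bp before the start site, that of Dll1 close to it, and those of Dll4, Prom1 and Ascl2 after it.

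The 8 peaks within 5 kb of the ends of occupied members had enrichment values from 4.76 to 7.06, with a median of 6.58. The 4869 wild-type peaks within 5 kb of any protein-coding gene end had a median of 5.64 (interquartile range 4.92 to 6.42). Above the list's median of 5.65 were 5 of the 8. Their widths ran from 628 to 2879 bp with a median of 1480 bp, against 1004 bp for all peaks near gene ends. The summit was inside the member gene in 5 of the 8, and this share was not computed over all peaks near gene ends. By a different measure, the summit lay after the nearest start site at 63.4% of the 4255 genes with a summit within 5 kb of one. The member values are descriptions of 8 peaks at 5 genes, since peaks of 1 gene share their locus and are not replicates.

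**Figure D3:**
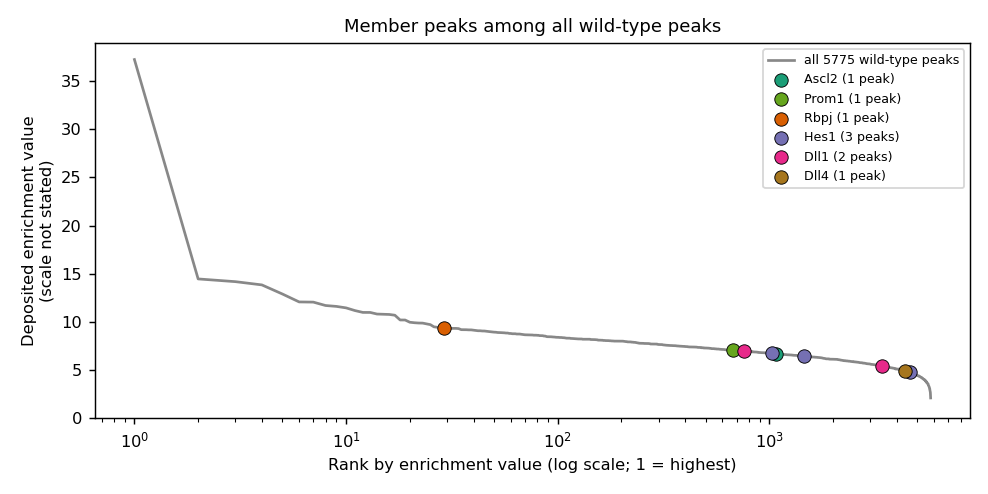
The grey line gives the deposited enrichment value of all 5775 wild-type peaks by rank on a log axis, and coloured points are the 9 peaks nearest to a member. Rbpj is at rank 29, and the others lie from rank 676 (Prom1) to rank 4601 (the lowest Hes1 peak).

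The other 4 peaks in the windows had their summit nearest to an end of another protein-coding gene. Beside the Inpp5e peak near Notch1, these were a peak of 5.98 near Dll1, 116 bp from an end of Fam120b, a peak of 6.02 near Dll4, 1871 bp from an end of Vps18, and a peak of 3.60 near Dll4, 249 bp from an end of Chac1. Vps18 encodes a core component of vesicle tethering at the lysosome, and Chac1 an enzyme that degrades glutathione.

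Listed promoters were then compared with the peaks directly. Each window held 250 bases before and 50 bases after a start site. Of the 11 windows of members, 6 lay wholly inside a wild-type peak, both of Rbpj, both of Dll1, and those of Dll4 and Ascl2, and the outer window of Prom1 lay in part inside. The other 4 windows (Notch1, Atoh1, Olfm4 and the inner one of Prom1) were not touched. Of 21263 windows of protein-coding genes, 14.0% lay wholly inside a peak and 20.6% were touched by one. The 11 windows come from 8 genes, and windows of the same gene are not separate units. Both windows of Rbpj overlap and lie in the same peak, and both of Dll1 share a peak. Counts of windows here and in the motif search are therefore not counts of genes.

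Motifs were searched on both strands of these windows. The RBPJ core TGGGAA was found in 4 of 11 member windows and in 24.5% of the 21263. At Rbpj itself it occurred 149 bp before the first start site and, on the other strand, 65 bp before it, and the window of the second start site overlaps this one and shares the latter match. Prom1 had it 116 bp before the outer start site and Olfm4 had it 12 bp before its start site. The N-box CACNAG, read by HES proteins, was in 7 of 11 member windows (41.9% of all), among them Ascl2 with 3 matches, and Notch1 with 3, 2 of which overlap each other. The last capitals of Ascl2 and of Notch1 are the first letters of N-boxes that run past the start site.

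GGGCGG, a core of SP and KLF factors, was in 6 of 11 member windows (46.2% of all). It had 5 matches at Notch1 and was also found at Atoh1, and neither window was touched by a peak. The windows with it that a peak touched were those of Dll4 (2 matches), Ascl2, the outer start site of Prom1 and the second of Rbpj. Over all windows, it was in 83.4% of those wholly inside a peak and in 38.2% of those not touched. The CCAAT box was in 6 of 11 (38.2% of all), with 3 matches at Ascl2 and 2 before the inner start site of Dll1. The AP-1 motif TGANTCA was in 3 of 11 (6.99% of all), in both windows of Prom1 and before the outer start site of Dll1. The nuclear receptor site AGGTCA was in 1 of 11 (14.7% of all), 109 bp before the inner start site of Dll1, and the longer site TCAAGGTCA of LRH-1 (Nr5a2), a known partner of SHP, was in 0 of 11 (0.334% of all). Of the remaining motifs, the NRF1 core GCGCATGC was in 1 of 11 (3.52% of all, before the second start site of Rbpj) and the TCF site CTTTGAT in 1 of 11 (3.22% of all, at Atoh1, where it overlaps a CCAAT box). The E-box CACGTG (7.84% of all), the TATA box TATAAA (12.6%), the ETS site CCGGAAG (11.6%) and the CRE site TGACGTCA (2.23%) were in 0 of 11. A match describes the letters only, and the summits of Rbpj, Dll4, Prom1 and Ascl2 lay outside the windows.

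Across the Notch pathway, 27 of 54 genes were occupied (50%), against 26.4% of all protein-coding genes. Among ligands 3 of 5 were occupied, with Jag1 (5.85) beside Dll1 and Dll4. Among receptors 2 of 4 were, Notch2 (6.15) and Notch4 (6.46, with 3 summits). Of the ligases that activate ligands by ubiquitination 2 of 4 were, Mib2 (5.71) and Neurl1b (5.33). The glycosyltransferases that tune the receptor had 3 of 5, led by Poglut1 (7.45) and Lfng (6.82). The Poglut1 value comes from a peak nearer to Timmdc1, 2508 bp from Poglut1. The Notch4 value comes from a summit 4194 bp from an end of the gene, and the nearest Notch4 summit was at 1137 bp.

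Of the target genes 6 of 8 were occupied, Hes1, Hes6, Hes7, Hey1, Hey2 and Nrarp, with values from 4.16 at Hes6 to 6.73 at Hes1. The nuclear complex had 4 of 9, among them the coactivator Maml3 (6.99). The Maml3 value comes from a summit 2851 bp from an end of the gene, and its nearest summit was at 258 bp. Rbpj was not counted, since its summit was near a start site only. Inhibitors and turnover factors had 5 of 9, among them Numb (4.99) and Itch (5.10). The proteases and gamma-secretase subunits that cut the receptor had 2 of 10, among them Adam10 (5.39), against 26.4% of all protein-coding genes. They had 3 of 10 when a summit within 5 kb of a listed start site also counted (27.2% of all protein-coding genes). Apart from the members and Poglut1, Maml3, Lfng and Notch4, the genes of the pathway named here were chosen after their values were seen. With the 24 non-members of the 27 the share was 24 of 49 (49.0%). Among occupied genes the median of the highest enrichment value was 5.76, and 5.73 over all occupied protein-coding genes. Without the peaks under the median −log10 p, 14 of the 54 genes were occupied, against 14.8% of all protein-coding genes.

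**Figure D4:**
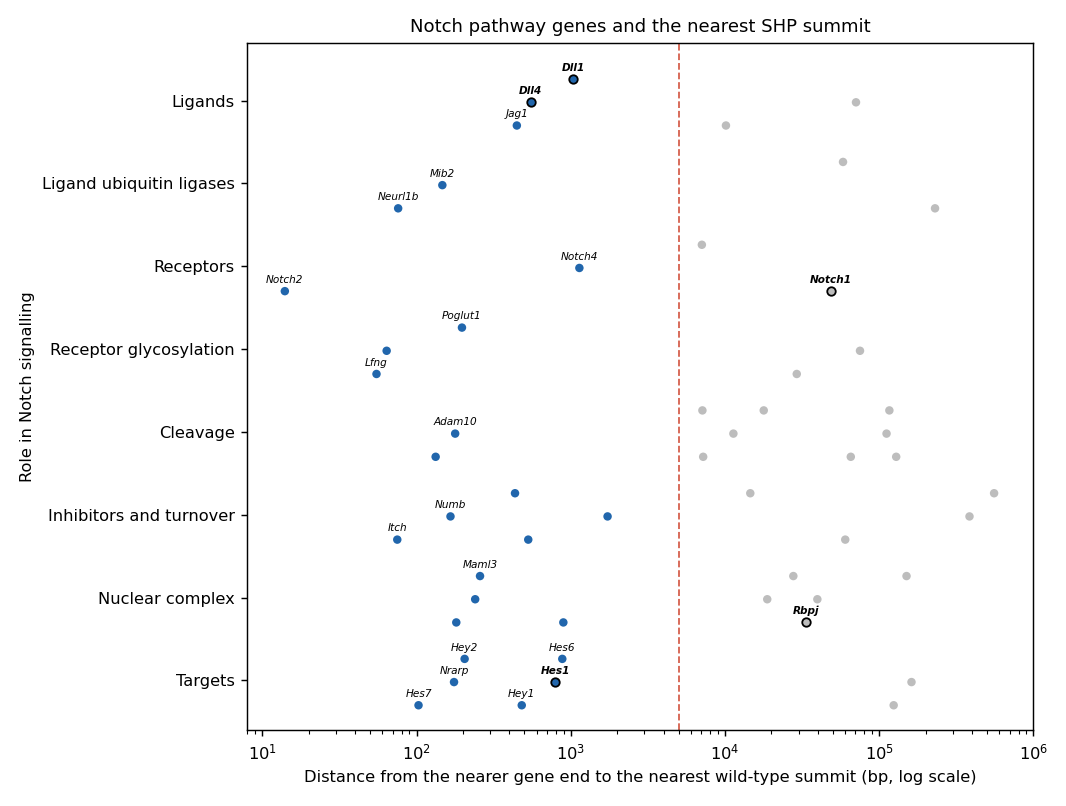
Each point is a gene of the Notch pathway, placed by the distance in bp (log axis) from its nearer end to the nearest wild-type summit, in rows by role. Blue points lie within 5 kb (dashed line), grey points beyond it, members are outlined, and the genes named in the text are labelled. Of the target genes 6 of 8 are within 5 kb, and of the cleavage genes 2 of 10, against 26.4% of all protein-coding genes. These are the highest and the lowest share among the roles, each of few genes.

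A wider list of crypt stem cell genes had 11 of 32 occupied (34.4%), and 9 of 28 without the members (32.1%), against 26.4% of all protein-coding genes. Among the non-members the highest values were at Bmi1 (7.25), a Polycomb protein, Cdca7 (6.44), Rnf43 (6.11), which removes Wnt receptors from the membrane, Lrig1 (5.94), an inhibitor of ErbB signalling, and Axin2 (5.76), a negative feedback target of Wnt. The peak of Bmi1 was nearer to Commd3 and that of Rnf43 nearer to Supt4a. Without the peaks under the median −log10 p, 5 of the 32 were occupied, a share close to the background of 14.8%.

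Wnt and R-spondin genes, which overlap the stem cell list at several names, had 22 of 42 occupied (52.4%), against 26.4% of all protein-coding genes. The highest values were at Ctnnb1 (7.44), which encodes beta-catenin, Tcf7l2 (7.37), its main DNA-binding partner in the intestine, Pygo2 (7.09), a coactivator, and the secreted ligands Rspo3 (6.77) and Wnt2b (6.35). Without the peaks under that median, 13 of the 42 were occupied, against 14.8% of all protein-coding genes. Secretory fate genes had 8 of 20 occupied (40%), against the same 26.4%, led by Klf4 (8.16), Xbp1 (7.41) and Foxa2 (7.18), followed by Pou2f3 (6.12), the tuft cell factor, and Foxa1 (5.82). Within 1 kb, 5 of the 20 were occupied, against 20.7% of all protein-coding genes, and without the peaks under the median −log10 p 3 of the 20 were, a share close to the background of 14.8%.

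**Figure D5:**
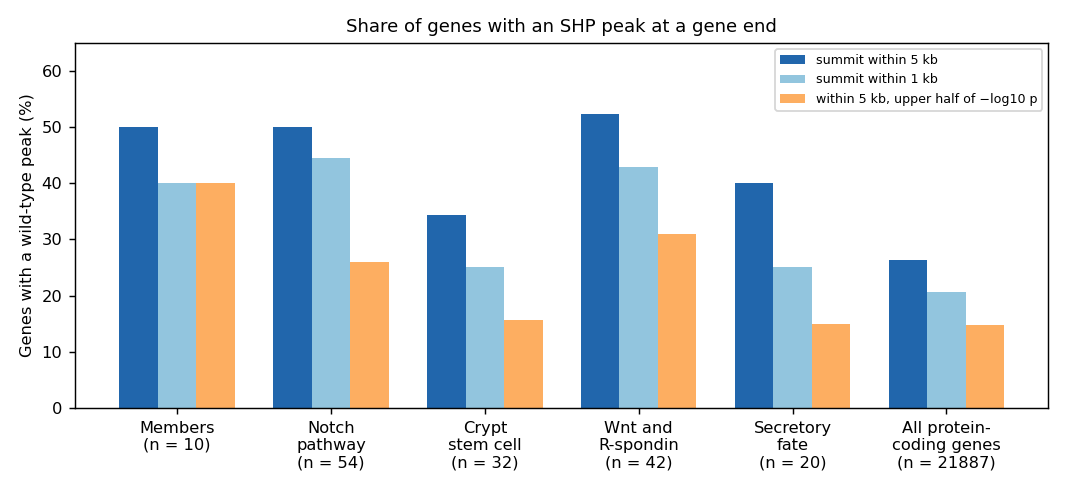
Bars give the percentage of genes with a wild-type summit within 5 kb of an end, within 1 kb, or within 5 kb after peaks under the median −log10 p were left out, for the members, the 4 wider lists and all protein-coding genes. The share within 5 kb is 50% for the members and 26.4% for all protein-coding genes.

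The knockout mice, which lack the antigen, served as the background of the antibody. Their list held 7 peaks, against 5775 in wild type, and 0 of the 7 lay within 50 kb or 100 kb of a member. With only 7 peaks in the whole list, a count of 0 near 10 genes says little about the members. Knockout peaks were on the chromosomes of 5 of the 10 members. The nearest were 8056362 bp from Dll1 and 22131273 bp from Ascl2. The lists were filtered in different ways, as their names show, so the absence of a knockout peak is no measure of how far the member peaks depend on SHP.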

How the data were processed

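SHP ChIP-seq peak lists of wild-type and SHP-knockout intestine were used, 1 for each genotype, and the inputs were not analysed here. Per the submitters' processing notes, the authors used CASAVA 1.4, BWA and the build mm10. Peak caller, settings and read depth were not given in the sources used here. Both deposited lists are narrowPeak tables of 10 columns. The deposited score ran from 540 to 1000 in the wild-type list. The name of that list gives an irreproducible discovery rate (a rate of peaks that disagree between replicate rankings) of 0.05. Column 7, a deposited signal per peak, is called the enrichment value. The deposited −log10 p, and the −log10 q beside it, served to describe and select peaks of the wild-type list.

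Summits (start + offset + 1) were compared with gene ends of the RefSeq table of GRCm38.p6 (mm10 coordinates, without strand). Strand and start sites came from the RefSeq promoter table, which holds no entry for some genes. Distances were computed with Python 3.11.15, numpy 2.4.6 and pandas 2.3.3, and the code was tested on simulated peaks. Shares over all protein-coding genes are given as the background. No test was made, because each genotype had a single list.

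The members, the 4 wider lists and the motifs were chosen with earlier results of these data known. Named genes were all members, the gene nearest to each peak in their windows, and up to 5 further genes of each list by enrichment value, and a gene that this rule names is not reported here. Alternatives were the distance, the overlap of the whole peak, stricter peaks, the nearest gene only and start sites.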

Additional observations from a re-analysis of the deposited data

How the results depend on the processing

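The count of 5 occupied members moved to between 4 and 6 over 9 alternatives, all within 1.5 times. It was 4 within 1 kb, where Dll1 was lost, and 4 without the peaks under the median −log10 p or under the 75th percentile of the enrichment value, where Dll4 was lost. It was 6, with Rbpj added, when start sites (27.2% of all protein-coding genes) or any position inside the gene (28.3%) also counted, 2 alternatives chosen after the data were seen. Stricter peaks lowered the lists by construction, since about as many peaks are dropped as kept. Without peaks under the median −log10 p, the Notch list fell from 27 to 14, the stem cell list from 11 to 5, the Wnt list from 22 to 13 and the secretory list from 8 to 3. Within 1 kb the secretory list fell to 5. With start sites added, a setting also chosen after the data were seen, the 4 lists had 29, 11, 24 and 8 in that order. Of the 26 alternatives run, 21 stayed within 1.5 times. No paired analysis was possible because each genotype had 1 peak list. Depth was unknown, so a gene without a peak cannot be called unbound.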

Other observations

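Base composition differed between promoter windows inside and outside peaks. Over 2979 windows of protein-coding genes wholly inside a wild-type peak the median GC content was 68.7% (interquartile range 63.7 to 73.3), with a median of 30 CG dinucleotides. Over 16890 windows not touched by a peak it was 53.7% (46.3 to 61.3), with a median of 8. Member windows inside a peak were lower than that median, from 56.3% at the outer start site of Dll1 to 67.0% at Ascl2 and at the second start site of Rbpj. Among members without a peak, Olfm4 had 52.3% and 5 CG dinucleotides and Atoh1 had 56.7% and 20. Notch1, also without a peak, had 68.3% and 23. GGGCGG was in 83.4% of windows wholly inside a peak and in 38.2% of those not touched, TATAAA in 3.36% and 14.6%, and TGGGAA in 16.4% and 26.0%. Whether base composition bears on the member peaks was not tested.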
